A study of Mus musculus with 8 samples.

Results

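Transcripts of 9 genes that mark skeletal muscle wasting were followed in 8 RNA-seq libraries of brown adipose tissue (BAT) from male C57BL/6 mice. The 9 genes were the rows of the deposited table whose symbol was Trim63, Trim55, Trim54, Fbxo32, Foxo1, Foxo3, Klf15, Ddit4 or Eif4ebp1, out of 49452 genes, and each symbol had 1 row. The list was chosen by symbol, and Trim63 was selected on its higher FPKM at 4 °C than at 22 °C, so the cold comparison is given for all 9 genes as a description without p-values, beside a count set against the whole table. The 4 groups of 2 libraries each were compared in pairs. Mice of the first pair were 10 to 12 weeks old and either stayed at 22 °C or spent 24 h at 4 °C, of which the study's methods describe the last 4 h as fasting. The methods do not say whether the 22 °C mice were fasted as well, so that cold and fasting cannot be told apart. Mice of the second pair were 32 weeks old and had been fed for 28 weeks. They received a high-fat diet (HFD) or what the labels call normal chow (NCD), for which the methods describe a control diet. No group carried a transgene or a deletion. Nothing in the labels says whether a library stands for a single animal, so the spread between 2 libraries may be partly technical.

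MuRF1, the product of Trim63, and atrogin-1, the product of Fbxo32, are E3 ubiquitin ligases that mark sarcomeric and regulatory proteins of muscle for the proteasome, and both transcripts are induced when muscle wastes during fasting, denervation or glucocorticoid treatment. FoxO transcription factors switch these ligases on when insulin and AKT signalling is low, and the glucocorticoid receptor acts on the same genes directly and through KLF15. Ddit4 encodes REDD1, an inhibitor of mTORC1, and Eif4ebp1 encodes 4E-BP1, the repressor of cap-dependent translation that mTORC1 inactivates. The ligases are abundant in striated muscle and are not known as brown adipocyte markers, whereas FoxO factors, KLF15, REDD1 and 4E-BP1 are made in many tissues including fat.

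The region upstream of Trim63 is shown because it holds letters known to be bound by both kinds of factor. Of the 9 genes, 6 had a promoter window in the RefSeq table of mouse build GRCm38.p6 (Trim63, Trim54, Foxo1, Foxo3, Klf15 and Ddit4), and the 250 bases before each start were searched on both strands for 6 motifs, which were chosen after the sequences had been seen. The motifs were the FoxO element TGTTTAC, the glucocorticoid receptor palindrome GAACANNNTGTTC, its single arm AGAACA (which can overlap the palindrome), the E-box CAGCTG of muscle basic helix-loop-helix factors, the E-box CACGTG of clock and stress factors, and the TATA box TATAAA. The windows of Trim63, Trim54 and Klf15 held matches, which are in capitals in the sequences, written 5′ to 3′ in the direction of the gene.
Trim63, chr4:134314870-134315119, plus strand: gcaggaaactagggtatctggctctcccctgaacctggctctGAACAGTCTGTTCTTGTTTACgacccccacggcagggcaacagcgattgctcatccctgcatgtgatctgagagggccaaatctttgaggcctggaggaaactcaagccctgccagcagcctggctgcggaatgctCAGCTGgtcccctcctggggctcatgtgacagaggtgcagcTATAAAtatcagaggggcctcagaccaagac
Trim54, chr5:31116362-31116611, plus strand: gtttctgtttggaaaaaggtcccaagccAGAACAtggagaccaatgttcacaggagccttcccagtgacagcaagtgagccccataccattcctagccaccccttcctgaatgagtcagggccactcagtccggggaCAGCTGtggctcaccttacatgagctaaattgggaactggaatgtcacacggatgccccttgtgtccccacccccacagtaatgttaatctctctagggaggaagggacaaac
Klf15, chr6:90462326-90462575, plus strand: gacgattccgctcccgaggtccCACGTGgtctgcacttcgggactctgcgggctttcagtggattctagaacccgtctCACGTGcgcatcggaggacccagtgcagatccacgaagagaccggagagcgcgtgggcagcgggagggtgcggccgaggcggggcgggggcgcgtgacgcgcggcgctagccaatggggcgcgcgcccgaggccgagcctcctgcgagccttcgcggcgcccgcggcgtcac
In the Trim63 window the palindrome GAACAGTCTGTTC lay at positions -208 to -196 from the start and the FoxO element at -194 to -188, the single arm at -200 to -195 overlapped the palindrome, CAGCTG lay at -72 to -67 and the TATA box at -31 to -26. The palindrome was present in 13 of 32851 windows of this length (0.0396%) and the FoxO element in 3.17%. The single arm occurred in 16.1% of the windows, CAGCTG in 13.0%, the TATA box in 12.4% and CACGTG in 6.02%. Trim54 held the single arm at -222 to -217 and CAGCTG at -113 to -108, and its RefSeq start lay upstream of the GENCODE start of the gene. Klf15 held CACGTG at -228 to -223 and again at -172 to -167. The windows of Foxo1, Foxo3 and Ddit4 held none of these letters. A match is a description of the sequence and no evidence of binding in these libraries.

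Values are FPKM, fragments per kilobase of transcript scaled to the fragments mapped in the library, so that levels may be compared between genes. The number of genes above 0 ranged from 23543 to 32686 a library, and 1 fragment on 2000 bases was worth 0.00440 to 0.00604 FPKM, as recovered from the spacing of low values. Replicates correlated across genes at r = 0.968 to 0.982. In every group 1 library had over 100 FPKM of the satellite-rich transcript Gm10800 and the other had less (22 °C replicate 4, 4 °C replicate 11, NCD replicate 8 and HFD replicate 2 were the high ones). All X-linked genes were listed at 0 in both 22 °C libraries and in NCD replicate 6, and none of the 9 genes is X-linked. A prefix in the labels set NCD replicate 6 apart from the other 3 libraries of the diet comparison. All 12 brown adipocyte markers, such as Ucp1 and Fabp4, were present in every group, with summed levels of 7276 to 7693 FPKM at 22 °C, 15244 to 17950 at 4 °C, 8542 to 15138 in NCD and 9258 to 13244 in HFD.

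**Figure D1:**
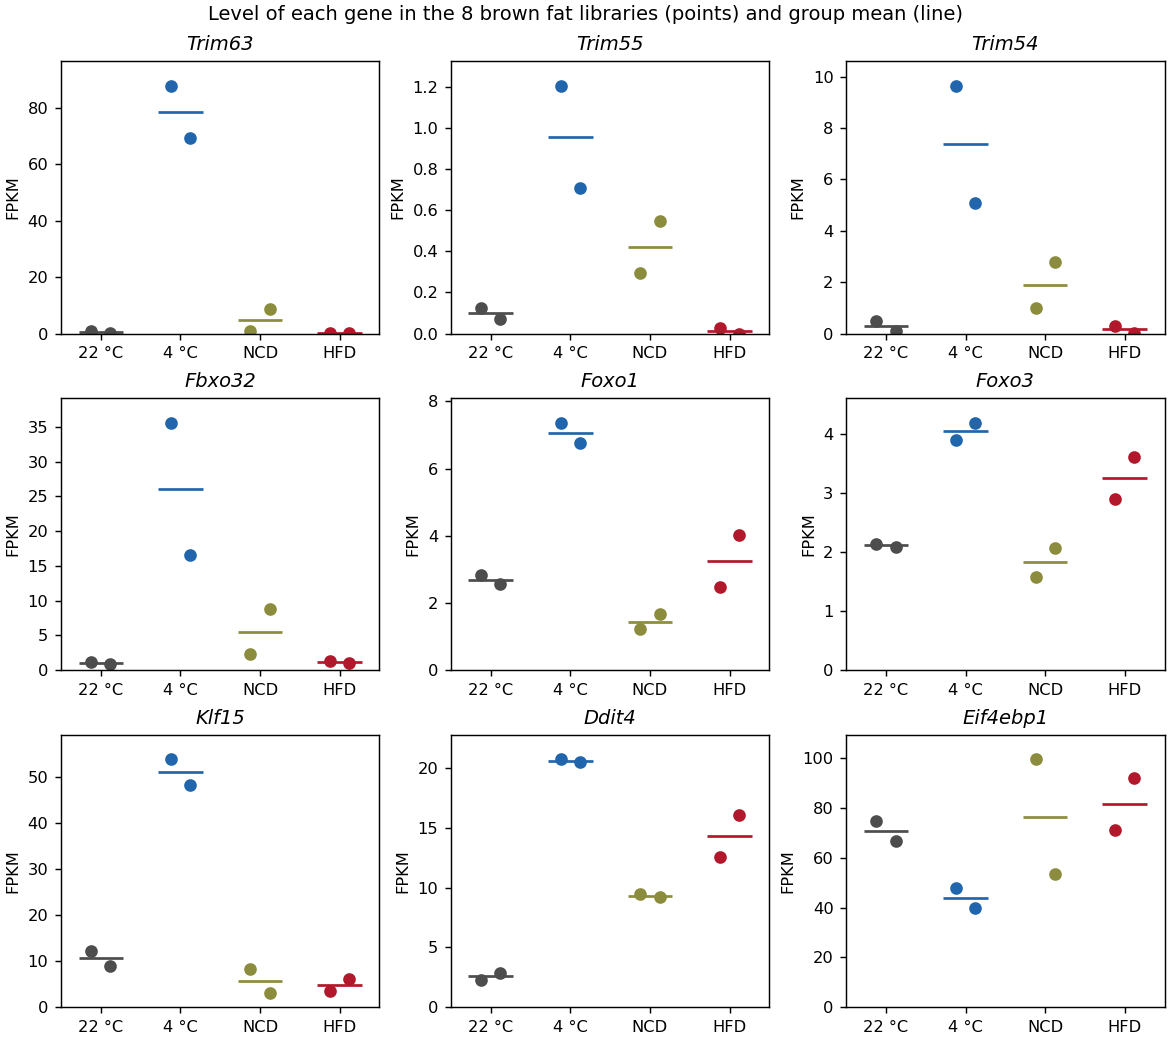
FPKM of each of the 9 genes (vertical axes, linear and starting at 0) in the 2 libraries of each group (points), with the group mean (line). Eif4ebp1 was lowest in both 4 °C libraries and the other 8 genes were highest there, with Foxo1, Foxo3 and Ddit4 having their next highest mean in HFD and the ligases in NCD.

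The 4 ligases were low at 22 °C, and each was higher at 4 °C in both libraries. Trim63 (ENSMUSG00000028834, chr4:134315120-134329629, plus strand, 9 exons) was at 0.898 FPKM in 22 °C replicate 4 and 0.190 in replicate 7, and at 87.7 FPKM in 4 °C replicate 2 and 69.2 in replicate 11. The 4 °C libraries thus lay far above both 22 °C libraries, with group means of 0.54 ± 0.50 and 78.4 ± 13.1 FPKM (SD, n = 2 each). The ratio of the means was 144 and the difference 5.71 on the log2(FPKM + 1) scale (moderated SE 0.29). The values at 4 °C rested on about 13670 and 12501 fragments and those at 22 °C on about 191 and 39.4, so that counting error was small beside the difference between the 22 °C libraries.

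Fbxo32 (chr15:58175879-58214892, minus strand), the F-box subunit of the other classical wasting ligase, was at 1.18 and 0.918 FPKM in 22 °C replicates 4 and 7. At 4 °C it was at 35.6 FPKM in replicate 2 and 16.6 in replicate 11. Both 4 °C values lay above both 22 °C values, by a ratio of means of 24.9 and a log2 difference of 3.64 (SE 0.37). Trim54 (chr5:31116712-31137630, plus strand), which encodes the microtubule-associated relative MuRF3, was at 0.486 and 0.0859 FPKM at 22 °C and at 9.64 and 5.09 FPKM at 4 °C, a log2 difference of 2.66 (SE 0.32) and a ratio of means of 25.7. Trim55 (chr3:19644474-19692421, plus strand), which encodes the titin-binding MuRF2, was the lowest of the family. Its level in the 22 °C libraries was 0.126 and 0.0698 FPKM, against 1.204 and 0.709 FPKM at 4 °C, a log2 difference of 0.82 (SE 0.14) and a ratio of means of 9.79. The added 1 shrinks differences of genes this low. With a pseudocount of 0.1 the log2 difference was 2.39 for Trim55, 4.43 for Trim54, 4.42 for Fbxo32 and 7.18 for Trim63. The order of the ligases within the 4 °C libraries was therefore Trim63, Fbxo32, Trim54 and Trim55 in both, whereas at 22 °C Fbxo32 was the highest in both. Exons of Trim54 and Fbxo32 share 382 and 186 bases with antisense transcripts (Gm15469 and Gm15943), and whether strand entered the FPKM is not given in the sources used here.

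The transcription factors were present in every library and were higher in both 4 °C libraries. Klf15 (chr6:90462576-90475238, plus strand), a glucocorticoid-inducible zinc finger factor of amino acid and lipid metabolism, was at 12.2 and 8.94 FPKM at 22 °C and at 53.8 and 48.2 FPKM at 4 °C. The 2 groups were well separated, with means of 10.6 ± 2.30 and 51.0 ± 3.97 (SD, n = 2 each), and the log2 difference was 2.18 (SE 0.23). Foxo1 (chr3:52268336-52353221, plus strand) was at 2.82 and 2.56 FPKM at 22 °C and at 7.37 and 6.78 FPKM at 4 °C, a log2 difference of 1.13 (SE 0.18). Foxo3 (chr10:42181841-42276755, minus strand) was at 2.14 and 2.08 FPKM at 22 °C and at 3.89 and 4.19 FPKM at 4 °C, a log2 difference of 0.70 (SE 0.17). Neither FoxO gene overlapped between the groups, although 674 exonic bases of Foxo1 are shared with the antisense transcript Gm20402.

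The 2 genes that act on mTORC1 and translation lay on opposite sides. Ddit4 (chr10:59949675-59951770, minus strand) was at 2.30 and 2.82 FPKM at 22 °C and at 20.8 and 20.6 FPKM at 4 °C. Its 4 °C replicates differed the least among the 9 genes relative to their level, the ratio of means was 8.07 and the log2 difference 2.61 (SE 0.19). Eif4ebp1 (chr8:27260329-27276674, plus strand), at 74.6 and 66.6 FPKM at 22 °C, was lower in both 4 °C libraries at 47.9 and 39.8 FPKM. This was a log2 difference of -0.68 (SE 0.23) and a ratio of means of 0.621.

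Across the 17470 autosomal genes tested in the cold comparison with limma, 1.22% were past the threshold and higher (adjusted p below 0.05 and a log2 difference of at least 1) and 0.223% were past it and lower. Of the 9 genes, 5 were past the threshold and higher and 0 were past it and lower. Both 4 °C libraries exceeded both 22 °C libraries for 8 of the 9 genes, against 37.9% of all genes tested, and both were below for Eif4ebp1, against 20.6%. The median log2 difference was 2.18 over the 9 genes and 0.07 over all genes tested, or 0.21 over the 9921 protein-coding genes averaging 1 FPKM or more. As Trim63 was picked for this contrast and the other genes were listed with it, nothing is read from these counts. Fits with 1 library left out leave 1 library in a group. The number of genes past the threshold depended on which library was left out, so no calls of the 9 genes are given for these fits.

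Markers of skeletal muscle were higher in the same libraries as the ligases. Ckm, the creatine kinase of skeletal muscle, was at 115 and 21.7 FPKM at 22 °C, at 1002 and 404 at 4 °C, at 130 and 257 in NCD replicates 6 and 8, and at 31.4 and 3.58 in HFD replicates 2 and 6. Its log2 difference in the cold was 3.63 (SE 0.86, adjusted p = 0.0857, limma) and did not pass the threshold. All 11 skeletal muscle markers found in the table had higher values in each 4 °C library than in either 22 °C library, against 37.9% of all genes tested. Of these markers 0 were past the threshold (median log2 difference 3.37) and none was at 0 in any group. Their summed level was 108 to 519 FPKM at 22 °C and 1809 to 4433 at 4 °C. Of 12 markers of slow or cardiac muscle, 9 could be tested. By limma 7 were past the threshold and higher in the cold, against 1.22% of all genes tested. Among them were Myl2 (log2 difference 5.23, adjusted p = 0.0442) and Tnnt1 (4.46, adjusted p = 0.0278). The summed level of the 12 markers was 3.12 to 15.6 FPKM at 22 °C and 276 to 473 at 4 °C. Myh6, which encodes a cardiac myosin, stayed at or below 0.051 FPKM in every library, and the atrial gene Myl7 was listed at 0 in both libraries of 3 groups and at 0.025 in NCD replicate 8. In tissue RNA, fewer or more cells of a type and less or more RNA per cell cannot be told apart, and the part of muscle content in the ligase levels was not tested.

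The ligases were therefore set against Ckm in each library. Per 100 FPKM of Ckm, the level of Trim63 was 0.779 and 0.878 FPKM in 22 °C replicates 4 and 7, compared with 8.75 and 17.1 in 4 °C replicates 2 and 11. It was at 0.719 and 3.43 in NCD replicates 6 and 8 and at 1.09 and 0.611 in HFD replicates 2 and 6. Both 4 °C values lay above the other 6. Trim63 was selected on its 4 °C level, which favours a high ratio there, so nothing is read from this order. The mean log2 ratio to Ckm was 3.89 higher at 4 °C than at 22 °C. Per 100 FPKM of the summed slow or cardiac markers, a reference chosen after the data were seen, Trim63 was at 5.74 and 6.10 at 22 °C, 18.6 and 25.1 at 4 °C, 3.28 and 2.76 in NCD, and 4.35 and 1.41 in HFD. The 4 °C libraries lay above the other 6 with this reference, which uses the same selected Trim63 values and is no separate support. The log2 difference was 1.87. Over the summed skeletal muscle markers, also chosen after the data were seen, the difference was 3.97. A skeletal muscle score, the mean log2(FPKM + 1) of those markers, was subtracted from log2(FPKM + 1) of Trim63 as well. It left -4.02 and -2.73 at 22 °C, -1.32 and -0.45 in 4 °C replicates 2 and 11, -3.97 and -3.05 in NCD, and -3.12 and -1.02 in HFD replicates 2 and 6, and the difference between 4 °C and 22 °C was 2.49. At levels below 1 FPKM this measure is set mostly by the added 1, as in HFD replicate 6 with 0.0219 FPKM of Trim63, so it is no ratio there and no order is read from it.

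NCD replicate 8 had a sum of slow or cardiac markers (320 FPKM) between those of 4 °C replicates 11 and 2 (276 and 473 FPKM), and less Ckm than either (257 FPKM). In NCD replicate 8 and 4 °C replicate 11, in that order, Trim63 was at 8.83 and 69.2 FPKM, Fbxo32 at 8.75 and 16.6, Trim54 at 2.79 and 5.09 and Trim55 at 0.547 and 0.709. These are values of single libraries that also differ in age, diet and housing, and Trim63 was selected on its 4 °C level, so nothing on muscle content is read from them.

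For Trim54 and Fbxo32 the direction of the ratio depended on the reference. Trim54 per 100 FPKM of Ckm was 0.422 and 0.396 in the libraries kept at 22 °C, 0.962 and 1.26 at 4 °C, 0.754 and 1.09 in NCD, and 0.938 and 0.980 in HFD, so that the 4 °C values overlapped those of the diet groups. Its difference in log2 ratio between 4 °C and 22 °C was 1.43 over Ckm, 1.52 over the skeletal sum and -0.59 over the slow or cardiac sum. Fbxo32 per 100 FPKM of Ckm was 1.02 and 4.23 at 22 °C and 3.56 and 4.12 at 4 °C, which overlap, and its difference in log2 ratio was 0.88 over Ckm and -1.14 over the slow or cardiac sum. In the diet groups Fbxo32 per 100 FPKM of Ckm was 1.84 and 3.40 in NCD and 4.10 and 29.96 in HFD replicates 2 and 6. Both HFD ratios were thus above both NCD ratios (difference in log2 ratio 2.15), although Fbxo32 itself was lower in HFD. The highest ratio had a low denominator, with Ckm at 3.58 FPKM and Fbxo32 at 1.07 in HFD replicate 6. Trim55 per 100 FPKM of Ckm was 0.109 and 0.322 at 22 °C and 0.120 and 0.175 at 4 °C, which overlap as well, and its difference in log2 ratio was -0.37 over Ckm, -0.28 over the skeletal and -2.39 over the slow or cardiac sum. Foxo1, Foxo3, Klf15, Ddit4 and Eif4ebp1 had lower mean ratios to Ckm at 4 °C, with log2 differences from -4.36 for Eif4ebp1 to -0.65 for Ddit4. Of these only Eif4ebp1 was itself lower at 4 °C. The mean of Ckm was 68.4 FPKM at 22 °C and 703 at 4 °C, so the ratio falls for any gene that rose by less.

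**Figure D2:**
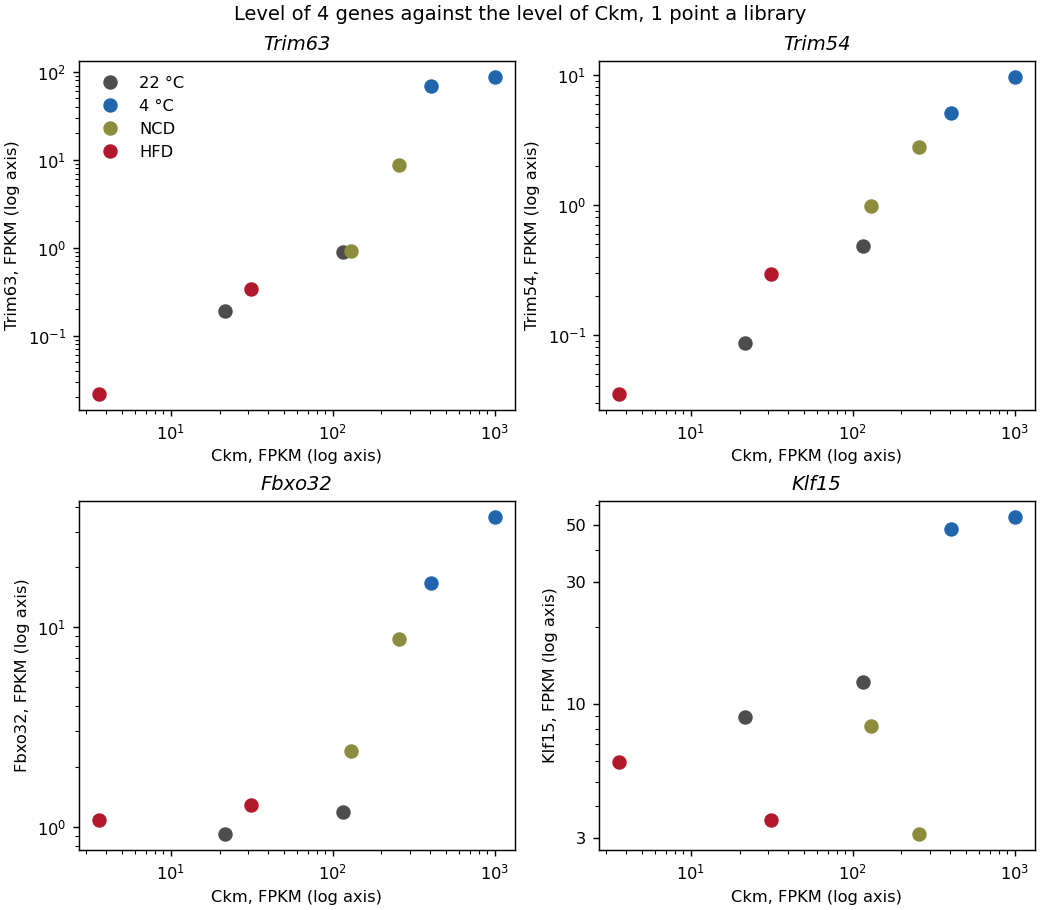
FPKM of Trim63, Trim54, Fbxo32 and Klf15 (vertical, log axes) against FPKM of Ckm (horizontal, log axes) with 1 point a library and groups by colour. Trim54 followed Ckm over the 8 libraries, Trim63 had its highest ratios to Ckm in both 4 °C libraries, Fbxo32 stayed near 1 FPKM in the 4 libraries with the least Ckm, and Klf15 at 4 °C lay above all others at any Ckm level. Trim63 was selected on its 4 °C level.

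The skeletal muscle score was also entered in a model of all 8 libraries. The log2 difference of Trim63 at 4 °C was then 4.27, that of Fbxo32 2.64, that of Trim54 1.71 and that of Trim55 0.57. Ckm was at 0.15, but it is among the markers averaged in the score. Its small difference was thus built in and is no contrast to the ligases. Klf15 (2.71), Ddit4 (2.91), Foxo1 (1.27) and Foxo3 (0.77) had larger differences with the score than without it, and Eif4ebp1 had a smaller one (-0.31). With the score in the model 0 genes of the whole table were past the threshold in limma, and 2334 had an unadjusted p below 0.05. Over the 8 libraries the score correlated at r = 0.86 with Trim63, 0.91 with Trim55, 0.91 with Trim54 and 0.86 with Fbxo32, at 0.60 with Klf15, 0.31 with Foxo1, 0.26 with Ddit4 and 0.13 with Foxo3, and at -0.72 with Eif4ebp1. These are descriptions over libraries that share groups and carry no p-value.

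**Figure D3:**
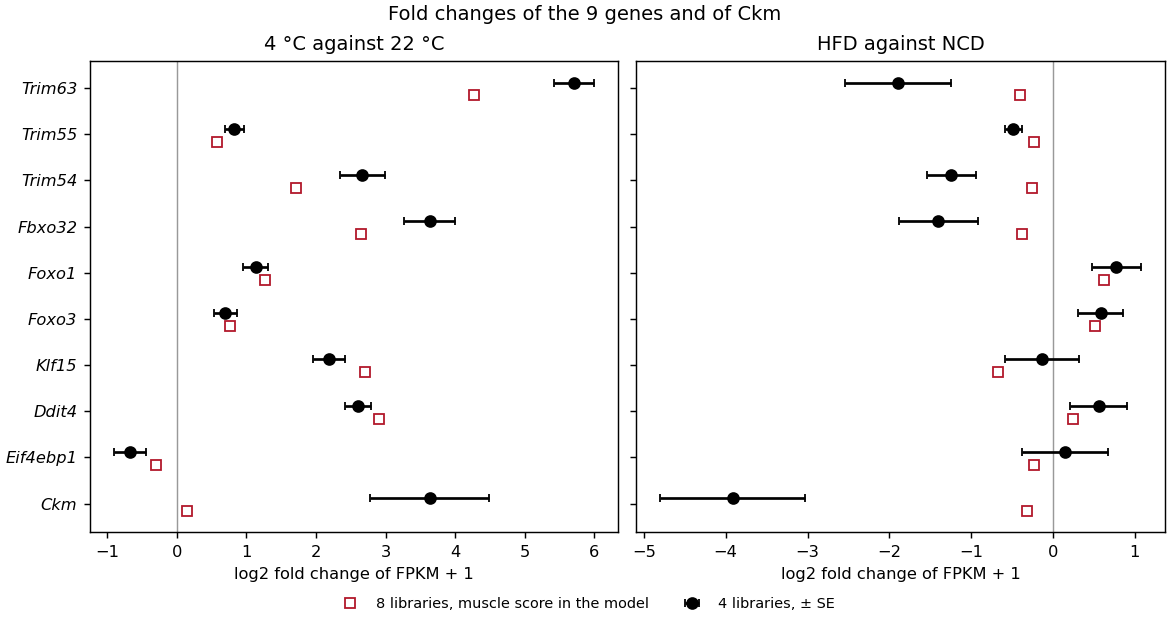
Log2 fold change of FPKM + 1 (horizontal axis) of the 9 genes and Ckm, 4 °C against 22 °C (left) and HFD against NCD (right), from the 4 libraries of each comparison (filled points, bars are the moderated SE) and from 8 libraries with the skeletal muscle score in the model (open squares). In the cold the squares of the 4 ligases lay nearer to 0 than the points (4.27 beside 5.71 for Trim63), and in HFD the squares of all 4 ligases lay between -0.40 and -0.23. Ckm is among the markers of the score, so its squares were bound to be small.

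Each of the 2 library types set by the satellite transcript held 1 library of each temperature. The differences within a type are descriptions of single libraries, for Trim63 from the values it was selected on. Nothing on library type is read from them. In the libraries high in Gm10800 the log2 difference was 5.21 for Trim63, 3.02 for Fbxo32, 1.90 for Klf15, 2.71 for Ddit4 and -0.89 for Eif4ebp1. In the low libraries it was 6.22, 4.26, 2.46, 2.51 and -0.47 for the same genes in that order. Ckm differed more between the types, at 1.80 in the high and 5.47 in the low libraries.

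Trim63 was picked on the cold comparison and not on the HFD comparison, which was tested. The genes were listed with earlier results of these data known. Trim55 entered the test only through its NCD libraries, where it was higher, and is left out of the counts. By limma 0 of the other 8 genes passed the threshold, and 4 had an unadjusted p below 0.05 (Trim63, Trim54, Fbxo32 and Foxo1). Of all genes, 0.0684% of the 17535 tested passed it (12 genes, and 2531 at an unadjusted p below 0.05). Trim63, Trim54 and Fbxo32 were lower in both HFD libraries than in both NCD libraries, against 5.8% of all genes tested. Trim63 was at 0.931 and 8.83 FPKM in NCD replicates 6 and 8 and at 0.343 and 0.0219 FPKM in HFD replicates 2 and 6. The NCD libraries differed from each other by more than NCD replicate 6 did from HFD replicate 2, and the log2 difference was -1.89 (SE 0.65, adjusted p = 0.257). Fbxo32 was at 2.38 and 8.75 FPKM in NCD and at 1.29 and 1.07 FPKM in HFD (log2 difference -1.40, SE 0.48, adjusted p = 0.254).

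Trim54 was at 0.977 and 2.79 FPKM in NCD and at 0.295 and 0.0351 FPKM in HFD (log2 difference -1.24, SE 0.30, adjusted p = 0.167). Trim55 was at 0.292 and 0.547 FPKM in NCD, at 0.0243 FPKM in HFD replicate 2 and listed at 0 in HFD replicate 6, where 3 fragments would be 0.0137 FPKM (log2 difference -0.48, SE 0.10, adjusted p = 0.151). For Trim55 the filter itself required higher NCD values, so its direction and p are no evidence. NCD replicate 8 held the highest value of each ligase in this comparison. Without it the log2 difference of Trim63 was -0.72, of Trim54 -0.77 and of Fbxo32 -0.63, and without NCD replicate 6, the library set apart by its label prefix, these were -3.07, -1.71 and -2.16. With the library type as a covariate in limma, Trim63 (adjusted p = 0.0260), Trim54 (0.00765) and Fbxo32 (0.0289) were past the threshold, as was Ckm (0.00512). In that fit 744 genes of the whole table passed (6396 at an unadjusted p below 0.05), against 12 without the covariate. Under the other alternatives with all libraries kept, none of Trim63, Trim54, Fbxo32 and Ckm passed where tested. For Trim63 the adjusted p in limma ranged from 0.0260 to 0.960 over the alternatives with all libraries kept. Fits with 1 library left out leave 1 library in a group, so no calls of these genes are given for them.

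The skeletal muscle markers were lower in HFD as well. Of 11 markers 10 were lower in both HFD libraries, against 5.8% of all genes tested (0 past the threshold, median log2 difference -3.74). Their sums were 554 to 1387 FPKM in NCD and 14.9 to 167 in HFD, and Ckm differed by -3.91 (SE 0.89, adjusted p = 0.158, limma). With the skeletal muscle score in the model the log2 differences were -0.40 for Trim63, -0.37 for Fbxo32, -0.26 for Trim54 and -0.23 for Trim55. By limma 0 of the 8 genes without Trim55 had an unadjusted p below 0.05 in that fit. Among all genes tested in it, 1771 had an unadjusted p below 0.05 and 1 passed the threshold. So few genes were below 0.05 there that nothing is read from the 0 of 8.

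Foxo1, Foxo3 and Ddit4 were higher in both HFD libraries than in both NCD libraries, against 39.9% of all genes tested. Foxo1 was at 1.22 and 1.68 FPKM in NCD and at 2.48 and 4.02 FPKM in HFD (log2 difference 0.78, SE 0.30, adjusted p = 0.299). Foxo3 was at 1.58 and 2.07 FPKM in NCD and at 2.89 and 3.60 FPKM in HFD (0.59, SE 0.28, adjusted p = 0.387). Ddit4 was at 9.43 and 9.22 FPKM in NCD and at 12.5 and 16.1 FPKM in HFD (0.56, SE 0.35, adjusted p = 0.516). These differences stand beside a median of 0.18 over all genes tested and 0.29 over the more abundant protein-coding genes. With median centring they were 0.42 for Foxo1, 0.23 for Foxo3 and 0.20 for Ddit4. Klf15 was at 8.25 and 3.12 FPKM in NCD and at 3.55 and 5.97 FPKM in HFD, and Eif4ebp1 was at 99.6 and 53.3 FPKM in NCD and at 71.2 and 92.2 FPKM in HFD. Both overlapped between the diets, with log2 differences of -0.13 (SE 0.45, adjusted p = 0.920) and 0.15 (SE 0.52, adjusted p = 0.921).

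Ordered by group means, Trim63, Trim55, Trim54 and Fbxo32 were highest at 4 °C and next in NCD, without overlap between these 2 groups or of NCD with the others. Their 22 °C and HFD values came last and overlapped for Trim63, Trim54 and Fbxo32, whereas Trim55 was lower in both HFD libraries than in both 22 °C libraries. Foxo1 was highest at 4 °C, followed by HFD and 22 °C, which overlapped, and then by NCD. Foxo3 was ordered 4 °C, HFD, 22 °C and NCD, of which the last 2 all but touched at 2.08 and 2.07 FPKM. Klf15 was highest at 4 °C, then at 22 °C, and last in NCD and HFD, which overlapped. Ddit4 was ordered 4 °C, HFD, NCD and 22 °C without overlap, and its level of 9.32 ± 0.15 FPKM in NCD (SD, n = 2) was above the 2.56 ± 0.37 FPKM at 22 °C. Eif4ebp1 overlapped among 22 °C, NCD and HFD and was lowest at 4 °C. Age, diet and housing differ between the 2 pairs of groups, so that orders across them are descriptions. The share of all genes without overlap was not computed across the pairs, so nothing is read from a lack of overlap there.

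Among the 9 genes, the 4 ligases varied together over the 8 libraries with r from 0.96 to 0.99 between pairs. All r given here are descriptions over libraries that share groups. They include the 4 °C values on which Trim63 was selected, so nothing is read from them. Genes compared with the 9 had to average 1 FPKM over the 8 libraries, which high values at 4 °C alone can give. Foxo1 and Foxo3 correlated at 0.92 and Foxo1 and Klf15 at 0.82. Eif4ebp1 correlated negatively with each of the others. Of 10877 autosomal genes averaging 1 FPKM or more, those most like Trim63 were Lrrc30 (r = 0.991), Flnc, the actin cross-linker filamin C of muscle (0.987), and Cav3, the muscle caveolin (0.986). Lrrc30 (0.997), Ppp1r27 (0.995) and Trim54 (0.993) were most like Fbxo32. The genes most like Trim54 were 2310002L09Rik, Cap2 and Abra (each 0.997), and those most like Trim55 were Asb5 (0.997), Abra (0.996) and 2310002L09Rik (0.995).

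Irak3 (r = 0.987), the clock gene Per1 (0.983) and Adnp2 (0.980) were most like Foxo1, and Abr (0.976), Gm29562 (0.974) and the mitochondrial calcium uniporter Mcu (0.973) were most like Foxo3. Gpat4, an enzyme of triglyceride synthesis (0.982), Ttc38 (0.976) and Prodh, the first enzyme of proline breakdown (0.974), were most like Klf15. For Ddit4 these were Gm10851 (0.977), the phosphatase gene Ptpn11 (0.975) and A530032D15Rik (0.969), and for Eif4ebp1 Ttc8 (0.986), Abracl (0.984) and Tmem14a (0.978).

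The other genes of the pathway were taken from lists and tested in both comparisons, 138 genes in all. The lists were chosen with earlier results of these data known. By limma 15 of the 138 genes were past the threshold and higher in the cold, against 1.22% of all genes tested (72 of the 138 at an unadjusted p below 0.05, against 4278 of 17470). Of these 15 genes, 7 were in the list of MuRF substrates and sarcomere partners, so nothing is read from the total on the pathway as a whole. With 1 library left out the number depended on which one. In these lists, genes that rose or fell are those past the threshold, against 1.22% higher and 0.223% lower of all genes tested. Among 24 further ubiquitin ligases and partners of muscle wasting, 3 rose in the cold and 0 fell (median log2 difference 0.48). They were Asb2, a cullin adaptor of muscle (0.973 and 0.513 FPKM at 22 °C, 16.9 and 9.17 at 4 °C, log2 difference 2.96, adjusted p = 0.0304), Trim72, the membrane repair ligase MG53 (2.41, adjusted p = 0.0459), and Cblb, a ligase acting on IRS1 (1.38, adjusted p = 0.0442). Asb2 and Trim72 were lower in HFD by -1.42 and -1.11 without passing the test (adjusted p = 0.220 and 0.245). The most abundant genes of the list, Skp1a (log2 difference -0.01), Ubb (0.96) and Nedd4 (0.31), did not pass the test. Fbxo30, the ligase MUSA1, was at 3.54 and 3.502 FPKM at 22 °C and at 8.997 and 6.68 FPKM at 4 °C (0.96, adjusted p = 0.0758), and is named after its values were seen.

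Of 29 FoxO target genes tested, 3 were past the threshold and higher in the cold and 0 were past it and lower (median 0.63). The shares of all genes tested were 1.22% and 0.223%. Cdkn1a, the cell cycle inhibitor p21, was at 7.62 and 4.77 FPKM at 22 °C and at 124 and 72.9 FPKM at 4 °C (log2 difference 3.77, adjusted p = 0.0218). Gabarapl1, an autophagosome protein, differed by 1.72 (adjusted p = 0.0442) and Ccng2, a cyclin of arrested cells, by 1.496 (adjusted p = 0.0442). The abundant targets Pdk4 (1.62, adjusted p = 0.104), Lpl (1.65, adjusted p = 0.0771) and Pck1 (-0.17) did not pass. In HFD the median of the list was 0.14.

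Of 8 KLF15 target genes tested, Prodh rose in the cold, from 10.4 and 7.57 FPKM to 31.3 and 27.8 FPKM (log2 difference 1.63, adjusted p = 0.0459), and 0 fell. Slc2a4, the insulin-dependent glucose transporter (0.81), Acsl1 (0.64) and Lipe, the hormone-sensitive lipase (0.24), did not pass. The medians were 0.72 in the cold and 0.01 in HFD. Of 15 genes of glucocorticoid and myostatin input tested, Fkbp5, a chaperone induced by glucocorticoids, rose in the cold and 0 fell (median 0.54). It was at 4.25 and 1.28 FPKM at 22 °C and at 25.2 and 20.2 FPKM at 4 °C (log2 difference 2.77, adjusted p = 0.0499), and at 1.98 and 2.69 FPKM in NCD and 6.12 and 13.1 FPKM in HFD (1.60, adjusted p = 0.169). Mt1 (1.72, adjusted p = 0.0584), Mt2 (2.17, adjusted p = 0.0587) and Hsd11b1 (0.11), which makes active glucocorticoid within the cell, did not pass.

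In 3 lists no gene passed in either comparison. The 8 tested FoxO relatives and partners had a median of 0.33 in the cold and 0.41 in HFD, and the cold differences of the 3 most abundant over the 8 libraries were 1.27 for Klf9 (adjusted p = 0.0594), 0.13 for Sirt2 and -0.01 for Ep300. Foxo4, which is X-linked and listed at 0 in the 3 libraries named above, was not tested. The 14 insulin and AKT genes had medians of 0.18 and 0.32, with Akt2 (-0.13), Akt1 (0.52) and Ywhaz (0.73) in the cold. The 21 genes of mTORC1 and translation control had medians of 0.66 and 0.30, with Rps6 (0.30), Eif4g1 (0.36) and Atf4, a stress-induced activator of amino acid genes (1.79, adjusted p = 0.0558), in the cold. By limma, 0 genes of the pathway lists passed in HFD and 35 had an unadjusted p below 0.05, whereas with 1 library left out 6 to 24 passed, the fewest without HFD replicate 6 and the most without NCD replicate 6.

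Of 19 substrates and sarcomere partners of the MuRF ligases, 7 were past the threshold and higher in the cold and 0 were past it and lower (median 3.46). The shares of all genes tested were 1.22% and 0.223%. The largest differences were those of Csrp3, a Z-disc LIM protein (5.63, adjusted p = 0.0215), Ankrd2 (5.54, adjusted p = 0.0196), Myl2 and Tnnt1 (given above) and Myl3 (4.02, adjusted p = 0.0271). The most abundant, Tnnt3 (3.53, adjusted p = 0.0874), Tnni2 (3.64, adjusted p = 0.0836) and Myl1 (2.36, adjusted p = 0.0601), did not pass. Of these 19 genes 5 are also among the slow or cardiac markers and 3 among the skeletal muscle markers, so the list is no separate measure. In HFD 17 of the 19 were lower in both libraries, against 5.8% of all genes tested, with a median of -2.96.

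**Figure D4:**
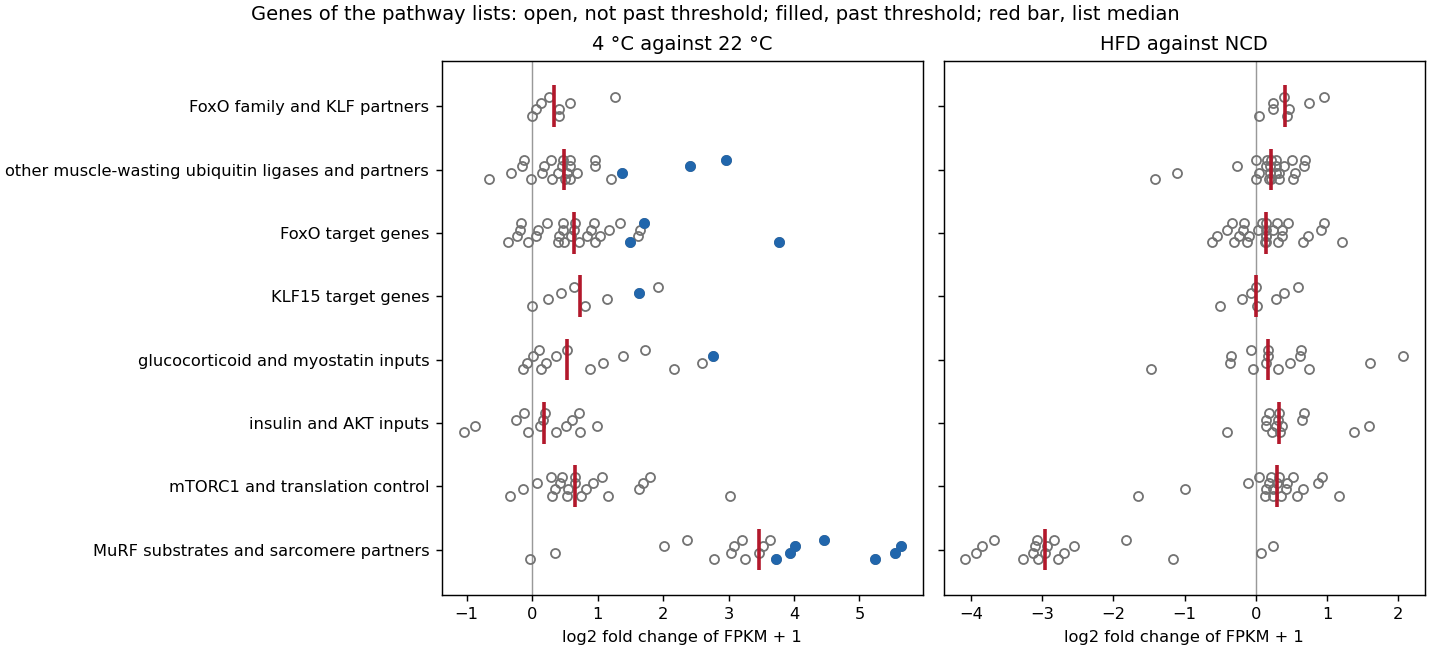
Log2 fold change of FPKM + 1 (horizontal axis) of the tested genes of each pathway list (rows), 4 °C against 22 °C (left) and HFD against NCD (right), with genes past the threshold filled and the list median as a red bar. In the cold the sarcomere list had a median of 3.46 while the other 7 medians lay between 0.18 and 0.72, and in HFD no gene was past the threshold and the sarcomere list had a median of -2.96.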

How the data were processed

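RNA of BAT was depleted of ribosomal RNA and sequenced as directional paired-end libraries. The authors mapped the reads to GRCm38 (TopHat2 2.0.10) and deposited a single table of FPKM per gene (Cufflinks, version 2.2.1 in the submitters' processing notes and 2.1.1 in the study's methods). FPKM hold no read counts, so a count test was not used. The step of low FPKM values gave the worth of 1 fragment, and 98.0 to 98.9% of 934 to 2431 low values a library were whole multiples within 0.1.

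Log2(FPKM + 1) of autosomal genes with at least 0.1 FPKM in 2 of 4 libraries was tested with limma 3.58.1 (R 4.3.3, two-sided, trended moderation), 22 °C against 4 °C and NCD against HFD, with Benjamini-Hochberg adjustment over all genes tested and a threshold of adjusted p below 0.05 and a log2 fold change of at least 1. The code was tested on simulated data. Genes were placed with GENCODE M21 (49109 of 49452 matched by identifier). Depth limits are in FPKM of 3 fragments and cover counting error only.

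The 9 genes and the lists were chosen with earlier results of these data known. Named were all 9 genes and Ckm, pathway list genes past the threshold (the 5 largest where there were more), the 3 most abundant genes of each pathway list, the most abundant gene of each marker list, and the 3 genes most correlated with each of the 9. Myh6, Myl7, Ucp1 and Foxo4 were named outside this rule. Fbxo31, Map1lc3b, Acta1 and Wdnm1-like had no single row. Alternatives were another pseudocount, filters, median centring, scaling to autosomal mRNA, keeping X, Y and mitochondrial genes, the library type as a covariate, all 8 libraries in a single fit without and with the skeletal muscle score, leaving out each library, and other muscle references.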

Additional observations from a re-analysis of the deposited data

How the results depend on the processing

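Genes past the threshold numbered 252 in the cold, and 475 with a pseudocount of 0.1, 6 without a filter, 529 with a filter of 1 FPKM in 2 libraries, 750 with median centring, 590 with autosomal mRNA scaling, 920 with X, Y and mitochondrial genes kept, 859 with the library type as a covariate, 439 with all 8 libraries in a single fit and 0 with the muscle score added (2334 at an unadjusted p below 0.05 in limma). With 1 library left out they were 0 to 244. Of the pathway lists 15 genes passed in the cold, and 0 without a filter, 27 with the higher filter, 35 with median centring, 23 with mRNA scaling, 31 with X, Y and mitochondrial genes kept, 36 with the library type, 24 with all libraries, 0 with the muscle score and 0 to 20 with 1 library left out. In HFD 12 genes passed, and 0 without a filter, 24 with the higher filter, 31 with median centring, 0 with mRNA scaling or with X, Y and mitochondrial genes kept, 744 with the library type, 75 with all libraries, 1 with the muscle score and 123 to 752 with 1 library left out. Of the lists 0 genes passed in HFD, and 1 with the higher filter, 26 with the library type and 6 to 24 with 1 library left out. Of the 9 genes 6 met a cold fold change of 1 on the log2 scale, and 5 to 7 under the alternatives. Past the threshold, which needs the adjusted p as well, were 5, and 0 without a filter and 0 with the muscle score. The other alternatives with all libraries kept gave 5 to 7. The cause of these shifts was not tested. The fit with X, Y and mitochondrial genes kept takes in X-linked genes, which were listed at 0 in both 22 °C libraries. In 4 °C replicates 2 and 11, 781 and 840 of them were above 0. How many of the 920 genes these make up was not tested. No cold fold change of the 9 genes reversed over 116 alternative values. In either comparison many of these values could not reverse. The filters, the X, Y and mitochondrial genes, the library type and the single fit without the score left every fold change as it was. Trim63 was also selected on its cold direction, so nothing is read from the lack of reversals. The cold fold changes of Trim63 (7.18), Trim54 (4.43) and Trim55 (2.39) were larger with a pseudocount of 0.1. Foxo1 was at 0.87 with median centring and 0.78 with mRNA scaling, both below 1. Under the same settings, in that order, Foxo3 was at 0.43 and 0.37 and Eif4ebp1 at -0.94 and -1.11. In HFD, 7 of 114 values reversed. Klf15 was at 0.45 without NCD replicate 6 and 0.18 without HFD replicate 2 (range -0.71 to 0.45 with 1 library left out). Eif4ebp1 was at -0.21 with median centring, -0.0088 with mRNA scaling and -0.23 with the muscle score. It was at -0.29 without NCD replicate 8 and -0.03 without HFD replicate 6 (range -0.29 to 0.60 with 1 library left out). With the muscle score subtracted the cold difference of Trim54 was -0.56, where the added 1 sets its 22 °C values, and over the summed skeletal list its log2 ratio was 1.52. With the summed slow or cardiac list as the reference it was -0.59, and that of Fbxo32 was -1.14. A library left alone in its group was assumed to vary like the other group. No paired analysis was possible because the 22 °C and 4 °C libraries share no replicate number and NCD and HFD share a single one. Trim55, Trim54 and Trim63 in HFD replicate 6 rested on 0 to about 4.05 fragments, so that depth limits their level there.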

Other observations

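Other cell types were read from the marker lists. All 7 macrophage markers were higher in both HFD libraries than in both NCD libraries (39.9% of all genes tested were), with a median log2 difference of 1.57 and sums of 39.7 to 109 FPKM in NCD and 192 to 244 in HFD. Lyz2, the most abundant of them, differed by 1.53 (adjusted p = 0.337, limma). The 5 smooth muscle markers had a median of 0.96 in the cold and 0.60 in HFD, with Acta2, the smooth muscle actin, at 1.39 and 1.42 (adjusted p = 0.0625 and 0.180). Of these 5 markers 4 were higher in both HFD libraries, in which 10 of the 11 skeletal muscle markers were lower.

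Of the white adipocyte markers 4 could be tested (median 2.26 in HFD). By limma 2 were past the threshold and higher in HFD, against 0.0684% of all genes past it in either direction. They were Lep (5.005, adjusted p = 0.0425) and Nnat (3.94, adjusted p = 0.0425), while Retn differed by 0.58. The endothelial list had medians of 0.20 in the cold and 0.60 in HFD, with Pecam1 at 0.66 and 0.74. The lymphoid list had medians of -0.19 and 0.08, with Ptprc at -0.29 and 1.26, and the erythroid list -0.11 and 0.65, with Hbb-bs at -0.13 and 0.28. Of the 12 brown adipocyte markers (median 0.38 in the cold) 3 were past the threshold and higher by limma, against 1.22% of all genes tested. They were Dio2 (3.01, adjusted p = 0.0196), Ppargc1a (2.92, adjusted p = 0.0208) and Elovl3 (4.58, adjusted p = 0.0466), and Fabp4 did not pass the test (adjusted p = 0.249). The slow or cardiac markers had a median of 4.24 in the cold and -3.10 in HFD. Lep, Nnat, Dio2, Ppargc1a and Elovl3 are named after their values were seen.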
